A study of Homo sapiens with 4 samples.

Results

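The beta-like globins are the chains encoded by the cluster on chromosome 11 that holds HBE1 (embryonic epsilon chain), HBG2 and HBG1 (fetal gamma chains) and HBD (delta chain). Members were the rows of the deposited table whose gene name is HBE1, HBG2, HBG1 or HBD. They are 4 of the 11213 gene names and 13 of the 32551 transcript rows listed: 3 rows for HBE1, 5 for HBG2, 2 for HBG1 and 3 for HBD. The gene identifiers in the table are ENSG00000213931 (HBE1), ENSG00000196565 (HBG2), ENSG00000213934 (HBG1) and ENSG00000223609 (HBD).

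K562 is an established human cell line from chronic myelogenous leukaemia that carries the BCR-ABL1 fusion and expresses erythroid genes. All 4 libraries came from K562 cells that received a lentivirus with polybrene and were selected with puromycin. Of these, 2 carried a control hairpin (shControl, genotype WT) and 2 a hairpin against PHF8 (shPHF8, genotype PHF8 knockdown), a histone demethylase. The labels do not say whether the numbers of the shPHF8 libraries stand for replicates or for separate hairpins, nor whether the cultures were separate; the p-values therefore measure the spread between these samples, which may be technical. Values are in TPM, transcript abundance scaled per length and to the same total in every library; the number of reads is unknown. PHF8 stood at 25.9 and 22.5 TPM in shControl, against 6.06 and 6.42 TPM in shPHF8. GATA1, a defining erythroid transcription factor, was present at between 307 and 343 TPM.

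Haemoglobin is a tetramer of alpha-like and beta-like chains, each holding a haem. The beta-like genes lie in the order of their use in development, and a distal enhancer, the locus control region, acts on one promoter after another: epsilon in the embryo, gamma in the fetus, then delta and the adult beta chain after birth. K562 cells are known for making embryonic and fetal chains, and the factors that silence the gamma genes have been studied because fetal haemoglobin eases beta-chain disorders.

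The coding sequences show how alike the members are over the coding bases, while the untranslated bases were not compared. In GENCODE release 29 transcripts (GRCh38) the coding sequence has 444 bases in each member, and HBG2 and HBG1 are identical at 442 of them (99.5%). The bases that differ are T227C and G410C, written as the HBG2 base, the position counted from 1 at the A of the start codon, and the HBG1 base. The other pairs are 76.1% to 83.6% identical. The stretches around both positions are shown because they are the coding bases by which a read can be given to one gamma gene and not the other. The first set covers coding positions 197 to 257 of all members, and capitals mark bases that differ from HBG2 (in HBG2 itself, from HBG1):
HBG2: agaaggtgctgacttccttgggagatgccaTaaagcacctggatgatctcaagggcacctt
HBG1: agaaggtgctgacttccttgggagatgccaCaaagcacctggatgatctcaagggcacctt
HBE1: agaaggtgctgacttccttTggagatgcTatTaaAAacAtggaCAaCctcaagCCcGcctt
HBD: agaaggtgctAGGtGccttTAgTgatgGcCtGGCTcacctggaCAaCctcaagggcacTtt
The second set covers coding positions 380 to 440 of the gamma genes, with the same use of capitals:
HBG2: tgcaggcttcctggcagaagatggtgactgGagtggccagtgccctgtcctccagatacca
HBG1: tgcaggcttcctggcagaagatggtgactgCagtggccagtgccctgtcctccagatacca
HBE1 and HBD differ from HBG2 at 12 and 17 of the 61 bases of the first stretch. HBG2 and HBG1 therefore share nearly all coding letters, so the values of each gamma gene are uncertain singly and their sum is given beside them.

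All members but HBD had higher values in both knockdown libraries than in both control libraries. The fetal genes differed most, with HBG2 at 1.76 times and HBG1 at 1.60 times its control mean, followed by the embryonic HBE1 at 1.34 times. HBD, the scarcest member, did not separate the groups. Over all 10972 genes tested with limma, 0 passed Benjamini-Hochberg adjustment at 0.05 (0% of genes), so no member did. An unadjusted limma p under 0.05 was met by 1086 genes that were higher and 1328 that were lower in shPHF8. The higher count was 646 without shPHF8 replicate 1 and 592 without shPHF8 replicate 2. By that rule 3 of the 4 members were higher, beside 9.90% of all genes tested. Both knockdown libraries lay above both controls in the same 3 members, beside 26.0% of all genes. The median log2 fold change of the 4 members was 0.55 and that of all genes was -0.02.

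**Figure D1:**
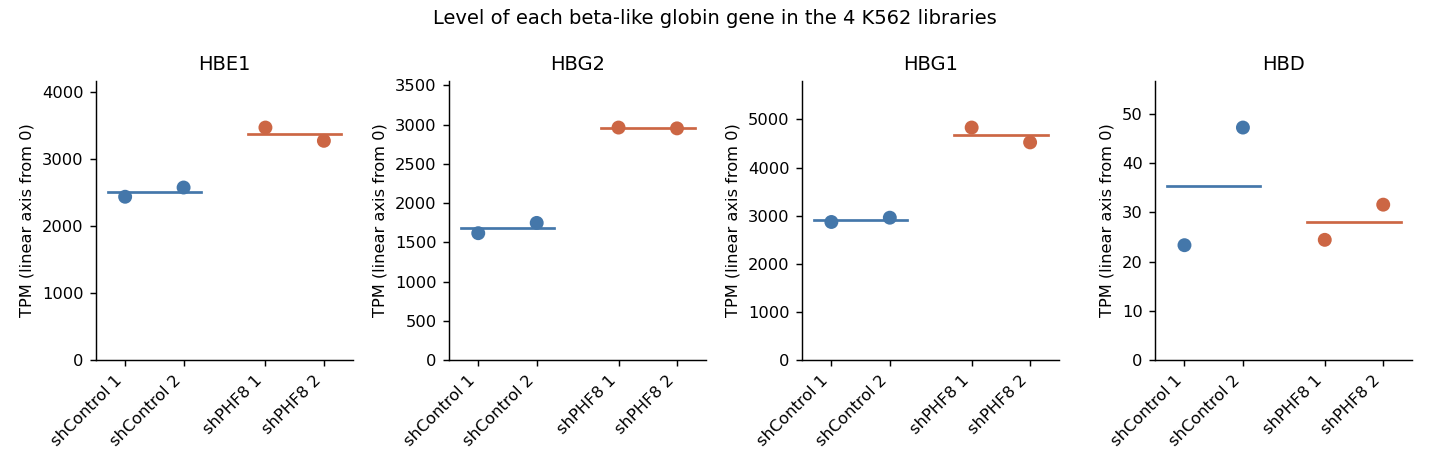
TPM of each beta-like globin gene (linear axes from 0) in the 2 shControl and 2 shPHF8 libraries; points are libraries and lines are group means. HBE1, HBG2 and HBG1 are higher in both knockdown libraries, while HBD spreads from 23.3 to 47.2 TPM within the controls alone.

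HBG2 encodes a fetal gamma chain, known as G-gamma for the glycine that sets it apart. It was at 1617 and 1748 TPM in shControl, against 2963 and 2952 TPM in shPHF8. The groups did not overlap, and the knockdown libraries were closer to each other than the controls were. Group means were 1683 ± 92.5 and 2957 ± 7.45 TPM (SD, n = 2). The log2 fold change, shPHF8 minus shControl in log2(TPM + 1) as throughout, was 0.81 ± 0.05 (SE; 95% confidence interval 0.67 to 0.96). Its limma Benjamini-Hochberg adjusted p was 0.0554, the smallest adjusted p over all genes, which HBG1 shared.

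HBG1 encodes the other gamma chain, known as A-gamma for the alanine in place of that glycine, and was the most abundant member in every library. It was at 2871 and 2959.6 TPM in shControl, against 4833 and 4524 TPM in shPHF8. The lowest knockdown value exceeded the highest control value. Means were 2915 ± 63.0 and 4678 ± 218 TPM (SD, n = 2), with a log2 fold change of 0.68 ± 0.05 (SE) and a 95% confidence interval from 0.55 to 0.82. HBG1 stood at rank 27 and 26 of all genes by TPM in the control libraries and at rank 12 and 13 in the knockdown libraries.

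The sum of HBG1 and HBG2 depends less on how reads were divided between them, though not wholly, since TPM are scaled by the length of the row that receives a read. The sum was at 4488 and 4708 TPM in shControl, against 7795 and 7476 TPM in shPHF8. The log2 fold change of the sum, fitted in the same table with the pair merged, was 0.73 ± 0.04 (SE; 95% confidence interval 0.61 to 0.85), with a limma Benjamini-Hochberg adjusted p of 0.0576. On the linear scale that interval runs from 1.53 to 1.80 times the control level.

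HBE1, the embryonic chain, was at 2435 and 2573 TPM in shControl, against 3467 and 3269 TPM in shPHF8. Again the groups did not overlap. Means were 2504 ± 97.3 and 3368 ± 140 TPM (SD, n = 2). The log2 fold change of 0.43 ± 0.05 (SE) had a 95% confidence interval of 0.28 to 0.57 (limma, Benjamini-Hochberg adjusted p = 0.0723). It was 0.15 (adjusted p = 0.862) when only the most abundant row of each gene was used.

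HBD encodes the delta chain, which pairs with alpha chains in the minor adult haemoglobin. It was at 23.3 and 47.2 TPM in shControl, against 24.4 and 31.5 TPM in shPHF8. The second control library was the highest and the first the lowest, with both knockdown libraries between them. The log2 fold change of -0.25 ± 0.38 (SE) had a 95% confidence interval of -1.29 to 0.78 (limma, Benjamini-Hochberg adjusted p = 0.733). The interval allows levels from 0.410 to 1.72 times the control level, which includes a difference as large as that of HBG1. Without shControl replicate 2 the value turned to 0.24, and without shControl replicate 1 it was -0.74.

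**Figure D2:**
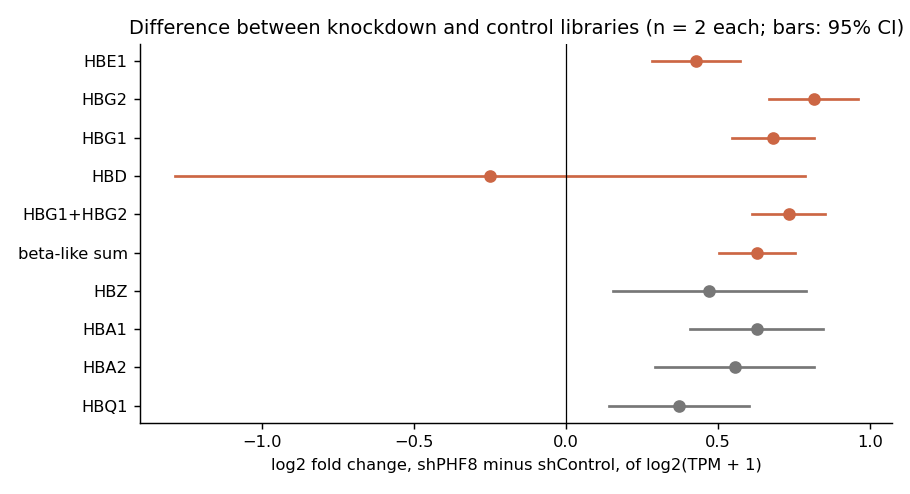
Log2 fold changes (shPHF8 minus shControl, of log2(TPM + 1)) with 95% confidence intervals from limma, for the beta-like members and their sums in colour and for the alpha-like globins in grey. The intervals of HBE1, HBG2, HBG1 and the alpha-like genes lie above 0, and that of HBD runs from -1.29 to 0.78.

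The order of the levels was the same in every library: HBG1, then HBE1, then HBG2, then HBD. No neighbours in that order overlapped within a group. The 3 abundant members were among 109 genes averaging 1000 TPM or more, of which 19 had both knockdown libraries above both controls. In those 109 genes the median log2 fold change was -0.08. Only 4 of them, HBG2 included, had a log2 fold change at least as large as that of HBG2, and 9, HBE1 included, one at least as large as that of HBE1. The control libraries differed from each other by 0.08 (HBE1), 0.11 (HBG2) and 0.04 (HBG1) on the log2 scale, against 0.99 for HBD.

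The fetal chains took a larger share of the summed TPM of the 4 members in both knockdown libraries than in either control. HBG1 and HBG2 together made up 64.6% and 64.2% of the beta-like TPM in the control libraries and 69.1% and 69.4% in the knockdown libraries. HBE1 made up 35.1% in each control library and 30.7% and 30.3% in the knockdown libraries. HBD never exceeded 0.644%. Multiplying a library by a constant leaves these shares as they are. They do depend on how HBE1 reads were divided among its rows, since TPM are scaled by row length. In GENCODE 29, HBE1-002 has 616 bases, while HBE1-001 and HBE1-201 have 913 and 918.

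Stated as a ratio, gamma to epsilon was 1.84 and 1.83 in the control libraries and 2.25 and 2.29 in the knockdown libraries. The groups did not overlap, and the difference of the log2 ratio was 0.30. An exact two-sided permutation test over libraries gave p = 0.33, which is the smallest p that 2 against 2 libraries allow. The gamma to HBD log2 ratio differed by 0.99 (exact permutation p = 0.33) and the HBE1 to HBD log2 ratio by 0.69 with overlapping groups (exact permutation p = 0.667). Without shControl replicate 2 these were 0.52 and 0.22, and without shControl replicate 1 they were 1.46 and 1.15. With the most abundant row per gene the gamma to epsilon difference was 0.56. The long rows HBE1-001 and HBE1-201 together were at 1.55 times their control mean. This stands beside 1.66 times for the gamma sum and 1.34 times for HBE1 with all its rows. How much of the gamma to epsilon difference comes from the division of HBE1 reads among rows was not tested. Within the fetal pair, HBG2 made up 36.0% and 37.1% of the TPM in the control libraries and 38.0% and 39.5% in the knockdown libraries. The groups did not overlap, and how reads were divided between these near-identical genes is part of this value.

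**Figure D3:**
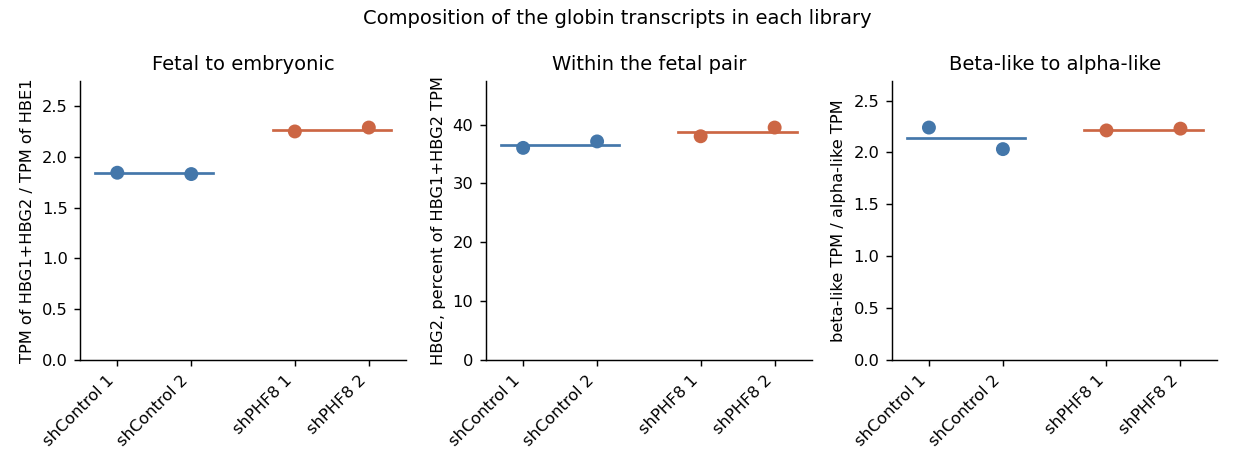
Ratio of HBG1 + HBG2 to HBE1, percent of HBG2 within HBG1 + HBG2, and ratio of summed beta-like to summed alpha-like TPM, by library, with group means as lines and axes from 0. Gamma to epsilon goes from 1.84 and 1.83 to 2.25 and 2.29, while beta-like to alpha-like stays between 2.03 and 2.24.

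The beta-like sum, which covers the 4 members and leaves out the adult beta chain, was at 6946 and 7328 TPM in shControl. In shPHF8 it was at 11287 and 10777 TPM. It took 0.695% and 0.733% of all TPM in the controls and 1.13% and 1.08% in the knockdowns. The log2 fold change of the sum was 0.63 ± 0.05 (SE), its 95% confidence interval 0.50 to 0.75 and its limma Benjamini-Hochberg adjusted p 0.0576. Under quantile normalization it was 0.37 (adjusted p = 0.0921).

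The alpha-like chains are the partners of the beta-like chains in haemoglobin. HBZ (embryonic zeta chain), HBA1 and HBA2 (alpha chains) and HBQ1 (theta chain) summed to 3102 and 3606 TPM in shControl, against 5103 and 4835 TPM in shPHF8. All 4 tested genes were higher at an unadjusted limma p under 0.05 (background 9.90%), with a median log2 fold change of 0.51. The ratio of beta-like to alpha-like TPM was 2.24 and 2.03 in the controls and 2.21 and 2.23 in the knockdowns. The groups overlapped, and the log2 ratio differed by 0.06 (exact permutation p = 1.0). A shift between both families was not detectable in these libraries.

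The transcript rows show where the TPM of each gene were placed. A row is one annotated transcript, and reads shared by overlapping transcripts had to be divided among them. Of the 13 rows, 12 were found by identifier in GENCODE release 29, which is on another build than the files and may define a transcript differently. Over the 30266 transcripts tested, 1 passed limma with Benjamini-Hochberg adjustment at 0.05 (0.00330%), and 0 of the 13 member rows did. At an unadjusted limma p under 0.05, 6 member rows were higher (background 4.91%) and 2 were lower (background 5.38%). Both knockdown libraries lay above both controls in 7 rows (background 21.0%) and below them in 2 (background 22.2%). Of the lower rows, HBG2-004 passed the filter on low values only through the control libraries, which fixed its direction.

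HBE1 had the least even division. HBE1-002, the transcript that starts at the gene's own RefSeq start, has 616 bases, all of which are also part of HBE1-201 and HBE1-001. Those transcripts begin 235707 and 235659 bases upstream in GENCODE 29 and add further exons there. They held 83.8% and 85.5% of the HBE1 TPM in the control libraries and 97.5% and 97.9% in the knockdown libraries.

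HBE1-002 went from 395 and 374 TPM in shControl to 86.2 and 69.8 TPM in shPHF8. This is the opposite direction to the gene, with a log2 fold change of -2.29 ± 0.13 (SE; limma, Benjamini-Hochberg adjusted p = 0.0866). HBE1-201 was at 1714 and 1793 TPM in the controls, against 2771 and 1370 TPM in the knockdowns.

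HBE1-001 was at 327 and 405 TPM in the controls, against 609 and 1829 TPM in the knockdowns. The knockdown libraries thus disagreed on which long row held the TPM, with HBE1-001 at 17.6% of the gene in one and 56.0% in the other. The sum of both long rows was even, at 3381 and 3199 TPM in the knockdowns beside 2040.4 and 2199 TPM in the controls.

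HBG2 was divided nearly alike in all 4 libraries, mostly into rows that were not found under HBG2 in GENCODE 29. HBG2-001 held 51.1% and 50.7% of the gene in the control libraries and 51.4% and 49.7% in the knockdown libraries. GENCODE 29 lists that transcript under another gene name, AC104389.4, as subject to nonsense-mediated decay, with 8 exons and a start 423653 bases upstream. It covers 298 of the 614 bases of HBG2-201, the transcript of the usual fetal gene, and none of its last exon. HBG2-202, whose identifier was not matched in that release, held a further 44.3% to 45.8%.

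HBG2-201 was at 36.8 and 49.9 TPM in the controls, against 93.2 and 109 TPM in the knockdowns, or 2.27% to 3.71% of the gene. Its direction was that of the gene, with a log2 fold change of 1.22 ± 0.21 (SE; limma, Benjamini-Hochberg adjusted p = 0.260). HBG2-003, a short row, was at 12.8 and 13.9 TPM in the controls, against 23.6 and 24.3 TPM in the knockdowns.

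HBG2-004, which starts 250824 bases upstream and covers 439 of the 614 bases of HBG2-201, was the exception. It was at 17.7 and 23.0 TPM in shControl, while both shPHF8 libraries list it at 0. The rows that GENCODE 29 keeps under HBG2 (HBG2-003, HBG2-004 and HBG2-201) summed to 67.3 and 86.9 TPM in the controls, against 117 and 134 TPM in the knockdowns. With these rows alone the HBG2 log2 fold change was 0.70 (limma, Benjamini-Hochberg adjusted p = 0.130), an alternative chosen after seeing the data. The level of HBG2 relative to HBG1 therefore rests on rows that GENCODE 29 does not list under HBG2. The direction of the HBG2 difference between groups was the same with and without those rows. Their TPM were left out and their reads were not assigned anew, so these are not values measured under GENCODE 29.

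HBG1 was simpler, with 98.7% to 98.9% of its TPM in HBG1-001 in every library. HBG1-001 was at 2833 and 2925 TPM in the controls, against 4781 and 4471 TPM in the knockdowns. HBG1-002 was at 37.6 and 34.2 TPM and at 51.5 and 53.0 TPM. Both rows had the direction of the gene.

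HBD-001 carried most of HBD, at 22.6 and 44.5 TPM in the controls, against 17.0 and 31.2 TPM in the knockdowns. HBD-003 stayed at or below 2.63 TPM. HBD-004 was at 6.49 TPM in the first knockdown library, where it made up 26.6% of the gene, at 0.338 TPM in the first control library, and listed at 0 in the others. No row of HBD separated the groups.

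**Figure D4:**
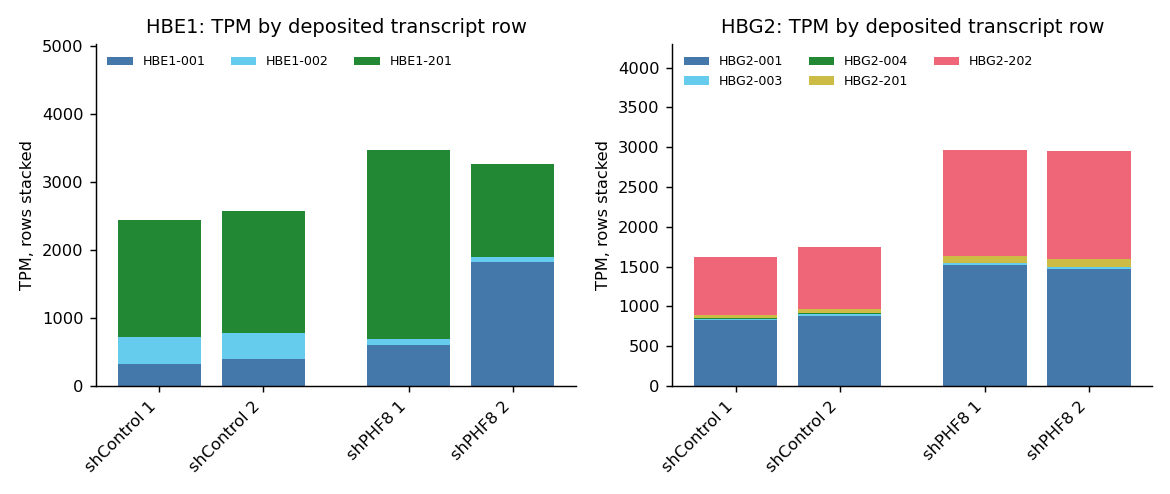
TPM of HBE1 (left) and HBG2 (right) stacked by deposited transcript row, in the 2 shControl and 2 shPHF8 libraries. The height of the HBE1 bars agrees within groups while its division into HBE1-001 and HBE1-201 does not, and the HBG2 bars keep nearly the same division in all 4 libraries.

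HBD is the member with the lowest level and the only one whose promoter was listed in the RefSeq table used here (GRCh38.p14). The start meant below is the RefSeq start. In GENCODE 29, HBD-001, the row with most of the HBD TPM, begins 165 bases upstream of it. Its 250 bases before the start, chr11:5234484-5234733 on the minus strand, are printed 5′ to 3′ with motif matches in capitals:
HBD: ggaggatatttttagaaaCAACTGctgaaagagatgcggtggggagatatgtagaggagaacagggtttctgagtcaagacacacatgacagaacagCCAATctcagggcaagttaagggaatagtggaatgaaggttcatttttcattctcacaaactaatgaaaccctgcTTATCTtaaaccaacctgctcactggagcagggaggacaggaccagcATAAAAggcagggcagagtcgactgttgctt
Both strands were searched for 5 motifs, none of whose matches overlap. ATAAAA, the core of a TATA box, begins 31 bases before the start, and 14.8% of the 35116 promoters listed hold it. AGATAA, the letters bound by GATA factors, matched on the other strand 78 bases before the start and occurs in 9.2% of promoters. CCAAT, the letters bound by NF-Y, begins 153 bases before the start and occurs in 32.0%. CAGNTG, an E-box bound by TAL1, matched 232 bases before the start and occurs in 42.5%. CCACCC, the letters of the CACCC box bound by KLF1, was not among these bases and occurs in 31.3% of promoters. The matches at 31, 78 and 153 bases before the RefSeq start thus lie downstream of the start of HBD-001. These are matches of letters and no measure of binding.

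Known regulators of the globin genes were described from lists. BCL11A, on the list of fetal globin repressors, is not among the gene names of the deposited table and was not tested. Of 31 tested repressors of fetal globin, 6 were higher at an unadjusted limma p under 0.05 (background 9.90%) and 0 lower (background 12.1%; 2 lower without shControl replicate 2), with a median log2 fold change of 0.10. SOX6, a factor that helps silence gamma and epsilon genes, was at 3.58 and 2.90 TPM in the controls, against 17.2 and 24.7 TPM in the knockdowns (log2 fold change 2.36 ± 0.25 SE, but 0.77 with its most abundant row alone). ZBTB7A, a direct gamma-gene repressor, was at 22.4 and 21.3 TPM and at 36.1 and 37.0 TPM (0.72 ± 0.11 SE). KLF3, a repressor of KLF1 target genes, was at 87.9 and 85.3 TPM and at 123 and 130.1 TPM (0.54 ± 0.08 SE). These repressors had higher values in the same libraries in which HBG1, HBG2 and HBE1 were higher. The limma Benjamini-Hochberg adjusted p was 0.0691 or above in every tested gene of the list.

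Of 21 tested genes in the list of globin gene activators, 3 were higher at an unadjusted limma p under 0.05 (background 9.90%) and 0 lower, with a median of -0.08. The lower count was 2 without shControl replicate 1 and 1 without shPHF8 replicate 1. KLF1, an erythroid activator, was at 139 and 143 TPM in the controls, against 188 and 184 TPM in the knockdowns. TCF3, the partner of TAL1, was at 67.7 and 63.7 TPM and at 98.0 and 100.8 TPM. The remaining gene, BACH1, at 69.3 and 57.1 TPM and at 94.9 and 96.7 TPM, is known as a haem-sensing repressor and does not do what the name of the list says. The master regulator GATA1 was at 339 and 343 TPM in the controls, against 311 and 307 TPM in the knockdowns (log2 fold change -0.14 ± 0.06 SE), a lower value where the globins were higher.

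Haem is the cofactor that each globin chain carries. Of 9 haem synthesis genes, 6 were higher at an unadjusted limma p under 0.05 (background 9.90%) and 0 lower (2 without shControl replicate 2), with a median of 0.53, close to the 0.55 of the beta-like members. CPOX, UROS and FECH, enzymes of the later steps, had the smallest p, with log2 fold changes of 0.83, 0.85 and 0.64. Of 9 tested genes for globin stability and erythroid partners, 7 were higher and 1 lower (background 12.1%; 2 without shControl replicate 1), with a median of 0.64. AHSP, the chaperone of free alpha chains, was at 41.5 and 26.9 TPM in the controls, against 117.8 and 118.0 TPM in the knockdowns. HEMGN, an erythroid nuclear protein, and CAT, the catalase, had log2 fold changes of 0.75 and 0.64.

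Erythroid identity markers went in both directions. Of 12, 7 had both knockdown libraries above both controls (background 26.0%). In 4, GATA1 and NFE2 among them, both knockdown libraries lay below both controls (background 29.3%). At an unadjusted limma p under 0.05, 5 were higher (background 9.90%) and 0 lower (background 12.1%), and the median was 0.17. Without shControl replicate 1 the lower count was 3 and without shControl replicate 2 it was 1; with the most abundant row per gene it was 2, and the higher count 3. TFRC, the transferrin receptor, had a log2 fold change of 0.85, but 0.26 (limma, Benjamini-Hochberg adjusted p = 0.846) with its most abundant row. ANK1, the ankyrin of the red cell, had 0.78, and 1.51 with its most abundant row. The summed erythroid list ran from 1985 to 2129.6 TPM in the controls and from 2398 to 2423 TPM in the knockdowns. Of 20 genes in the granulocyte and monocyte list 10 passed the filter on low values, 5 of them only through the control libraries, which fixed their direction. The other 5, LYZ, CD68 and CD33 among them, were below both controls in both knockdown libraries and lower at that p (background 12.1%). The whole list had a summed level of 213 to 249.5 TPM in the controls and 114 to 123 TPM in the knockdowns. LYZ, lysozyme, CD68, a macrophage protein, and CD33, a myeloid receptor, had log2 fold changes of -0.75, -0.80 and -1.12. TYROBP, a myeloid adaptor among the genes that passed through the controls, is listed at 0 for both shPHF8 libraries. In bulk RNA a change in how many cells express a gene and a change in RNA per cell cannot be told apart, and the part of these shifts in the globin values was not tested.

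Of 6 tested megakaryocyte markers 1 was higher and 1 lower at an unadjusted limma p under 0.05 (background 9.90% and 12.1%), namely TUBB1, the platelet tubulin (1.46), and PLEK, pleckstrin (-2.12, a gene that passed the filter only through the controls), and the median was -0.07. Next by p, ITGA2B, the platelet integrin alpha chain, had 0.37. The list summed to 168 to 174 TPM in the controls and 180.1 to 199.6 TPM in the knockdowns. Of 2 tested lymphocyte markers, 1 of which passed the filter only through the controls, 1 was lower (background 12.1%; both without shControl replicate 1, 0 with the most abundant row): CD3D, a T-cell receptor component, with -1.19, or -0.69 with its most abundant row. Their list summed to 30.4 to 34.4 TPM in the controls and at most 15.6 TPM in the knockdowns.

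**Figure D5:**
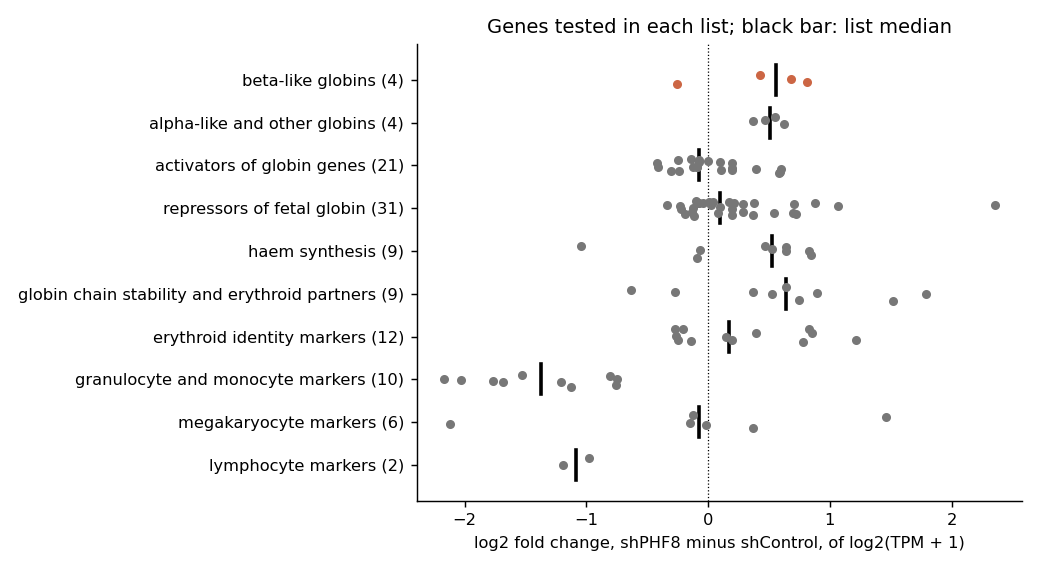
Log2 fold changes (shPHF8 minus shControl) of the genes tested in each list, with the number tested in parentheses and the list median as a black bar. The beta-like members (coloured) centre on 0.55, near the haem synthesis genes at 0.53, while the granulocyte and monocyte markers lie below 0, a side fixed by the filter for 5 of the 10.

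Genes with the pattern most like a member were found by the Euclidean distance between log2(TPM + 1) values centred over the 4 libraries, among 1843 genes averaging 100 TPM or more. The 5 nearest to the sum of HBG1 and HBG2 were ANK1 (distance 0.07), HEMGN (0.09), GDF15, a secreted factor made by maturing erythroblasts (0.09), PLIN2, a lipid droplet protein (0.10), and TPGS2, a subunit of the tubulin polyglutamylase (0.11). ANK1, for example, was at 100.1 and 107.7 TPM in the controls, against 186 and 172 TPM in the knockdowns. The nearest to HBD lay farther away: PRDX2, the red cell peroxiredoxin (0.24), UBE2V1 and SUPT4H1 (0.32 each), NDUFA6 (0.32) and DUS1L (0.33). PRDX2 was at 239 and 475 TPM in the controls, against 278 and 281 TPM in the knockdowns. These genes share with HBD its highest value in the second control library.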

How the data were processed

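RNA of 4 K562 libraries was analysed. The authors deposited transcript abundances in TPM, per the file headers; each column sums to 1000000 TPM. HISAT2 2.0.4 and StringTie 1.2.3 with hg19 are named in the submitters' processing notes; for their roles, the annotation and the strandedness, nothing is given in the sources used here. A further 4 per-library columns without a unit were not used. TPM keep no read number, so precision comes only from the spread between libraries. TPM were summed per gene name, merged for HBG1 and HBG2 or for all members in separate fits, and tested as log2(TPM + 1) for features with a mean of at least 1 TPM, using limma 3.58.1 in R 4.3.3 (mean-variance trend, two-sided, Benjamini-Hochberg over all features, threshold 0.05; 2 residual and 2.16 prior degrees of freedom). The fit was also run on simulated data with larger changes than any member showed, and no result here rests on that run. Lists covered alpha-like globins, globin gene activators, fetal globin repressors, haem synthesis, globin stability and erythroid partners, and erythroid, granulocyte and monocyte, megakaryocyte and lymphocyte markers. Named in each list were the 3 genes with the smallest p, or all where 5 or fewer were tested, and the 5 nearest genes by pattern; other genes named (GATA1, NFE2, TYROBP) were picked once values had been seen, and some genes that the rule names are not reported here. BCL11A is named as a list gene without values. The members and lists were chosen with earlier results of these data known. Alternatives were another pseudocount, 2 filters, 3 scalings, no trend, a replicate block, the most abundant row per gene and leaving out each library. Figures used Python 3.11.15 and matplotlib 3.10.9.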

Additional observations from a re-analysis of the deposited data

How the results depend on the processing

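HBG1, HBG2, HBE1, their sums and the 3 log2 ratios between members kept their direction under all 14 alternatives. Many of these could not move some of the values. The filters, no trend and the replicate block leave the log2 fold changes and ratios as they are. Another pseudocount and the scalings other than quantile normalization also leave the ratios unchanged. The choice of HBG2 rows could not move HBE1 or HBG1. Quantile normalization called HBG2 (log2 fold change 0.87) and HBG1 (0.69), each with a limma Benjamini-Hochberg adjusted p of 0.0485; over the other alternatives the adjusted p ran up to 0.275 for both, and that of HBE1 from 0.0682 to 0.862. Genes called over the table were then 17 higher and 20 lower, and 10 higher and 11 lower with the most abundant row per gene, where the HBE1 value was 0.15. Without each library in turn, which leaves a lone sample assumed to vary like the other group, HBD ran from -0.74 to 0.24, HBD-001 from -0.92 to 0.031, HBD-003 from -1.18 to 0.17, HBD-004 from -0.21 to 2.70 and HBE1-201 from -0.36 to 0.66. PRDX2 ran from -0.76 to 0.22, DUS1L from -0.49 to 0.16, NDUFA6 from -0.53 to 0.29, SUPT4H1 from -0.47 to 0.17 and UBE2V1 from -0.42 to 0.16; with the most abundant row SUPT4H1 was at 0.11 and UBE2V1 at 0.10. Genes at an unadjusted p under 0.05 and higher ran from 592 to 1118. With a mean of at least 5 TPM, 5 granulocyte and monocyte markers were lower in place of 10. The cause of these shifts was not tested.

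The HBG2 share of the gamma pair in control libraries was 35.7% under quantile normalization and 22.9% with the most abundant row. It was 2.57% with the HBG2 rows that GENCODE 29 keeps, where the reads of the rows left out were not assigned anew. In knockdown libraries the share was 24.4% with the most abundant row and 2.62% with the GENCODE 29 rows. In the same order (quantile, most abundant row, GENCODE 29 rows) the gamma share of the beta-like sum was 63.9%, 67.6% and 54.1% in controls and 70.1%, 75.1% and 58.6% in knockdowns, and the HBE1 share was 35.6%, 31.8% and 45.3% in controls and 29.7%, 24.6% and 41.1% in knockdowns. The replicate block, with the label numbers as a covariate, left the HBG1+HBG2 value at 0.73 with adjusted p = 0.194 (limma, Benjamini-Hochberg) and called 0 genes; same-numbered libraries did not deviate together (correlation -0.029 over genes), so the numbers are not taken as pairs.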
